A study of Mus musculus with 12 samples.

Results

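The genes described here encode the subunits, assembly helpers and activators of the proteasome, in the M. gastrocnemius of adult mice. They were chosen by symbol: Psma, Psmb, Psmc or Psmd followed by a number, or a symbol that starts with Psme. This gave 44 genes, each with 1 row, of 22206 transcripts in all. RNA of 6 mice fed a high-phosphorus diet (P1.2; 1.2% phosphorus) and of 6 mice fed an adequate diet (P0.3; 0.3% phosphorus) was hybridized to Clariom S mouse arrays, 1 array per mouse. All were male C57BL/6J mice, 19 weeks old at purchase and 6.5 months old by the label, that received their diet for 6 weeks. The diets were semi-synthetic and differed in the amount of potassium dihydrogen phosphate. The adequate diet alone also held potassium bicarbonate, and its cornstarch content was slightly higher. Each mouse is given by its group and number, even for P1.2 and odd for P0.3.

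The proteasome is the barrel-shaped protease that breaks down proteins tagged with ubiquitin. Its core particle has outer rings of alpha subunits, which form the gate, and inner rings of beta subunits, of which Psmb5, Psmb6 and Psmb7 carry the active sites. A regulatory particle on the end of the barrel recognises ubiquitin chains (non-ATPase subunits, Psmd genes) and unfolds and threads the substrate (ATPases, Psmc genes). Under interferon gamma, and in many immune cells, Psmb8, Psmb9 and Psmb10 take the places of Psmb5, Psmb6 and Psmb7, and the activator made of Psme1 and Psme2 joins in, so that peptides are cut in a way that favours antigen presentation. In skeletal muscle the ubiquitin-proteasome system is best known for the loss of muscle protein during fasting, disuse and disease.

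By these roles, the 44 genes fell into 7 alpha and 7 beta subunits of the core particle, 6 ATPases and 11 non-ATPase subunits of the regulatory particle, and 3 chaperones of its base (Psmd5, Psmd9 and Psmd10, which are not part of the finished particle). The immune genes were 5 (Psmb8, Psmb9, Psmb10, Psme1 and Psme2), and Psme3 and Psme4 encode 2 other activators. Psma8 of the testis and Psmb11 of the thymus are 2 tissue-specific subunits. Psme2b, a near-identical copy of Psme2, completed the set, and the share of its signal that comes from Psme2 RNA is unknown.

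Sequence upstream of 4 of the 6 catalytic genes (Psmb9, Psmb8, Psmb5 and Psmb6) is shown first, since immune and constitutive genes are set side by side below. Psmb10 held none of the patterns searched and is not printed, and Psmb7 had no entry in the promoter table. Psmb9 and Tap1, a peptide transporter gene of antigen presentation, start back to back on chromosome 17. The whole stretch between their starts is 225 bases long (chr17:34187331-34187555, RefSeq GRCm38.p6). It is printed on the plus strand, in the direction of Tap1, with its CCAAT box (34187334 to 34187338) in capitals:
Psmb9 and Tap1: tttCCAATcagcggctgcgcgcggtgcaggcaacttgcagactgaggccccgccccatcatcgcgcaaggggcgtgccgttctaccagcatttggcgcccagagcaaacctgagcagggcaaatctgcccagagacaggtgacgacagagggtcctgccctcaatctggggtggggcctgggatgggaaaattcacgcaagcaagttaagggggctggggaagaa

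Next come windows of 60 bases upstream of Psmb8 (chr17:34198072-34198131, plus strand), Psmb5 (chr14:54618009-54618068, minus strand) and Psmb6 (chr11:70525297-70525356, plus strand), each read in the direction of its gene. Capitals mark TTCNNNGAA, a pattern like the interferon gamma activated site, in Psmb8, and TGACNNNGC, a pattern like the antioxidant response element, in Psmb5 and Psmb6:
Psmb8: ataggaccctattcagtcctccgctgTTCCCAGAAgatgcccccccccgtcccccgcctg
Psmb5: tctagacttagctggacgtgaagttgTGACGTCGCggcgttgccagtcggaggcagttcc
Psmb6: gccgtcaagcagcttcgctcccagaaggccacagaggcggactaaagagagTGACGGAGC

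The RefSeq table held 40 promoters of 37 of the 44 genes. Both strands of the 250 bases before each start were searched. TGACNNNGC was found in 5 of the 40 (12.5%, against 10.2% of all 32851 promoters), namely those of Psmb5, Psmb6, Psmc6, Psmd12 and Psmd9. CCAAT was found in 14 (35%, against 33.8%). GAAANNGAA, a pattern like the interferon response element, was found in 3 (7.5%, against 7.13%), none of them among the 6 promoters of immune genes. TTCNNNGAA was found in 1, that of Psmb8 (2.5%, against 7.02%). These shares describe letters only.

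The tissue label was checked on the fast skeletal muscle markers. Their mean log2 signal was 19.03 to 19.26 on P1.2 arrays and 18.98 to 19.18 on P0.3 arrays. Array medians ranged from 6.29 to 6.40. As a guide to what is dim, the 95th percentile of 1455 odorant and vomeronasal receptor transcripts lay at a log2 signal of 6.11. Of the 44 genes, 40 had a mean above it. Psmb8 (6.01), Psmb9 (5.87), Psma8 (4.48) and Psmb11 (4.44) lay below it. The lists of adipocyte (8 genes), endothelial (10), fibroblast (8), erythroid (5) and leukocyte (15) markers had 1 gene with a diet call, against 2.28% of all transcripts. It was the hormone gene Lep of adipocytes (mean 5.19 on P1.2 arrays and 5.74 on P0.3 arrays, both dim). Its log2 fold change, P1.2 minus P0.3, was -0.55, while the median of the adipocyte list was 0.14. In whole muscle, fewer cells of a type and less RNA per cell cannot be told apart.

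No proteasome gene was called for a diet effect, which here asks for more than a 1.3-fold change either way together with an unadjusted limma p below 0.05. These are the thresholds of the study, which applied them to its own unpaired test of each transcript, with no variance shared between transcripts, in place of limma. Of all transcripts, limma called 0.919% higher and 1.36% lower in P1.2, or 2.28% in either direction. With that test the shares were 0.639% higher and 1% lower, and it called none of the 44 either. None of the 44 had an unadjusted p under 0.05 (3.25% of all transcripts did), none passed 1.3-fold (4.06% did, without a test), and in none did the groups separate without overlap (0.153% did). The lowest p was 0.145 (Psmb10). After Benjamini-Hochberg adjustment over all transcripts no transcript passed, and the lowest adjusted p was 0.9999.

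The log2 fold changes, P1.2 minus P0.3, ran from -0.22 (Psmc6) to 0.22 (Psmb5 and Psmb10). They were positive in 24 genes and negative in 20, with a median of 0.01, against -0.01 over all transcripts. Core subunits had a median of 0.06 (9 positive and 5 negative), regulatory subunits of -0.01 (8 and 9) and immune genes of -0.03 (2 and 3). Without 1 array, these medians ran from 0.00 to 0.12, from -0.07 to 0.05 and from -0.11 to 0.07, so the order of the 3 groups was not stable. The 95% interval stayed within a 1.3-fold change either way in 10 genes, within 1.5-fold in 39 and within 2-fold in all 44. The 5 genes outside 1.5-fold were Psmb4, Psmb5, Psmc6, Psmd7 and Psmd5. Changes smaller than these intervals were not detectable with 6 arrays per group.

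**Figure D1:**
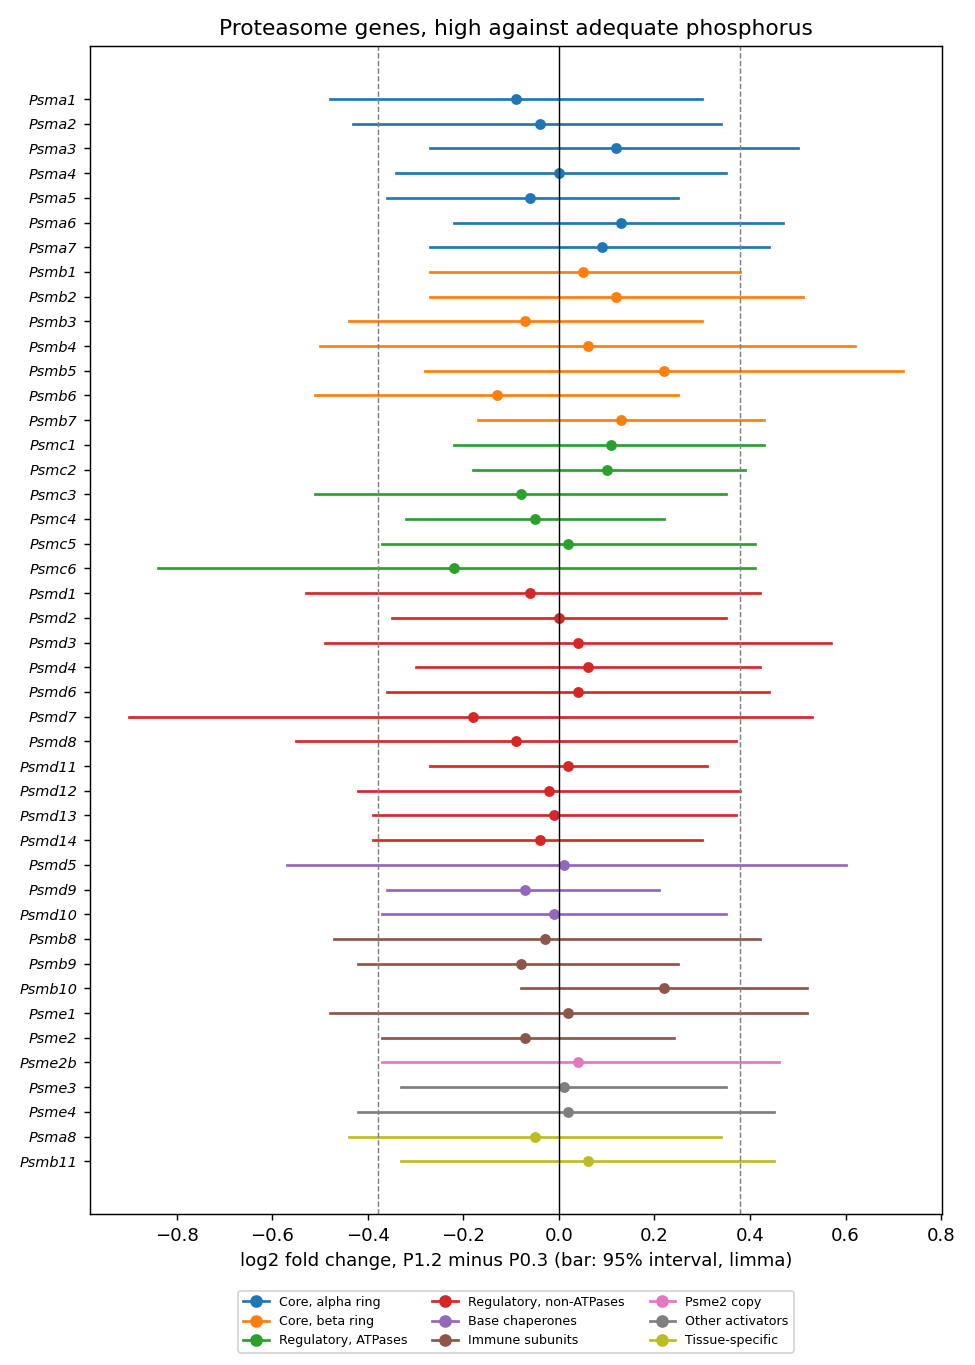
Log2 fold change of each of the 44 proteasome genes, P1.2 minus P0.3 (points; bars are 95% intervals from limma, 6 arrays per diet), coloured by role, with dashed lines at a 1.3-fold change (0.38 on the log2 scale). Every point lies between -0.22 and 0.22 and every bar crosses 0, and the widest bars are those of Psmd7 and Psmc6.

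Alpha subunits, which gate the barrel, had mean signals of 9.99 (Psma7) to 13.25 (Psma6). Psma6 had a lowest, median and highest log2 signal of 12.84, 13.43 and 13.63 in P1.2 and of 12.95, 13.26 and 13.35 in P0.3. Its difference was 0.13 (SE 0.16). Both the lowest and the highest mouse were on P1.2. Psma3 had 12.27, 12.69 and 13.01 in P1.2 and 12.05, 12.63 and 13.02 in P0.3, a difference of 0.12 (SE 0.18). The P0.3 mice enclosed the P1.2 mice on both sides. The other alpha genes, Psma1, Psma2, Psma4, Psma5 and Psma7, differed by -0.09 to 0.09.

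Of the beta subunits, Psmb5 (chymotrypsin-like site) had 8.75, 9.35 and 9.77 in P1.2 and 8.39, 9.04 and 9.91 in P0.3. Its difference of 0.22 (SE 0.24, 95% interval -0.28 to 0.72) was well inside the spread of the P0.3 mice, which enclosed all P1.2 mice. Psmb6 (caspase-like site) had 11.99, 12.63 and 12.91 in P1.2 and 12.39, 12.60 and 13.10 in P0.3, a difference of -0.13 (SE 0.18). Psmb7 (trypsin-like site) had 14.44, 14.71 and 15.05 in P1.2 and 14.39, 14.60 and 14.83 in P0.3, a difference of 0.13 (SE 0.14). The 3 active-site genes thus did not share a direction, and their groups overlapped in each case. Psmb1, Psmb2, Psmb3 and Psmb4, which carry no active site, differed by -0.07 to 0.12.

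Among the ATPases, Psmc2 had 13.58, 13.85 and 14.19 in P1.2 and 13.56, 13.76 and 14.00 in P0.3, a difference of 0.10 (SE 0.14). Psmc6 had 12.33, 12.51 and 13.45 in P1.2 and 12.25, 12.57 and 13.83 in P0.3, a difference of -0.22 (SE 0.29, 95% interval -0.84 to 0.41). The medians were nearly equal, and 3 mice stood far above the others: P1.2 number 4 (13.45) and P0.3 numbers 1 (13.83) and 5 (13.81). Psmc1, Psmc3, Psmc4 and Psmc5 differed by -0.08 to 0.11, and Psmc4 had the smallest spread of the whole set (SD over 12 arrays 0.14).

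Among the non-ATPase subunits, Psmd7, the partner of the deubiquitinase Psmd14, had 14.64, 15.19 and 16.51 in P1.2 and 14.59, 15.32 and 16.62 in P0.3. Its difference was -0.18 (SE 0.34, 95% interval -0.90 to 0.53), and its range over the mice, 2.03 on the log2 scale, was the widest of all members. The same 3 mice as for Psmc6 were the highest. Psmd8, a lid subunit, had 14.06, 14.41 and 15.15 in P1.2 and 14.13, 14.49 and 15.19 in P0.3, a difference of -0.09 (SE 0.22), with the groups almost superimposed. The scaffold genes Psmd1 and Psmd2 (-0.06 and 0.00), the ubiquitin receptor Psmd4 (0.06), Psmd14 (-0.04) and the lid genes Psmd3, Psmd6, Psmd11, Psmd12 and Psmd13 (-0.02 to 0.04) were nearer to 0.

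The base chaperones help to place the ATPases during assembly. Psmd9 had 7.54, 7.77 and 7.92 in P1.2 and 7.62, 7.80 and 8.17 in P0.3, a difference of -0.07 (SE 0.13). Psmd10, also known as gankyrin, had 7.46, 7.75 and 8.11 in P1.2 and 7.43, 7.81 and 8.05 in P0.3, a difference of -0.01 (SE 0.17). Psmd5 differed by 0.01, with an SD over the 12 arrays of 0.54.

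Of the other activators, Psme3, which is mainly nuclear, had 11.58, 12.02 and 12.45 in P1.2 and 11.78, 12.02 and 12.13 in P0.3, a difference of 0.01 (SE 0.16). Psme4 had 15.06, 15.86 and 16.11 in P1.2 and 15.24, 15.94 and 16.12 in P0.3, a difference of 0.02 (SE 0.20). In P1.2 the lowest mouse, number 12, stood apart from the next at 15.82. The tissue-specific Psma8 had 3.88, 4.42 and 5.03 in P1.2 and 4.16, 4.50 and 4.81 in P0.3. Psmb11 had 3.98, 4.53 and 4.81 in P1.2 and 4.0, 4.31 and 4.92 in P0.3. Both lay below the dim level in all mice, and their differences were -0.05 and 0.06.

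Of the immune catalytic genes, Psmb8 had 5.51, 5.91 and 6.89 in P1.2 and 5.59, 6.09 and 6.37 in P0.3, a difference of -0.03 (SE 0.21). The highest value was that of P1.2 number 12, and the next P1.2 mouse had 6.06, so the other 5 lay in or just below the P0.3 range. Psmb9 had 5.54, 5.80 and 6.13 in P1.2 and 5.59, 5.91 and 6.37 in P0.3, a difference of -0.08 (SE 0.16).

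Psmb10 had 6.25, 6.47 and 6.97 in P1.2 and 6.08, 6.30 and 6.51 in P0.3. Its difference of 0.22 (SE 0.14, 95% interval -0.08 to 0.52) had the lowest limma p of the set (0.145), and the two-sided exact permutation test gave p = 0.0887. In P1.2, 5 of 6 mice lay above the P0.3 mean, and the groups overlapped. Psme1 had 12.22, 12.88 and 13.38 in P1.2 and 12.17, 12.92 and 13.27 in P0.3, a difference of 0.02 (SE 0.24). Psme2 had 9.22, 9.50 and 9.75 in P1.2 and 9.11, 9.69 and 9.70 in P0.3, a difference of -0.07 (SE 0.14). The groups overlapped for both parts of the activator. The copy Psme2b had 7.34, 7.88 and 8.31 in P1.2 and 7.52, 7.72 and 8.11 in P0.3, a difference of 0.04 (SE 0.20).

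**Figure D2:**
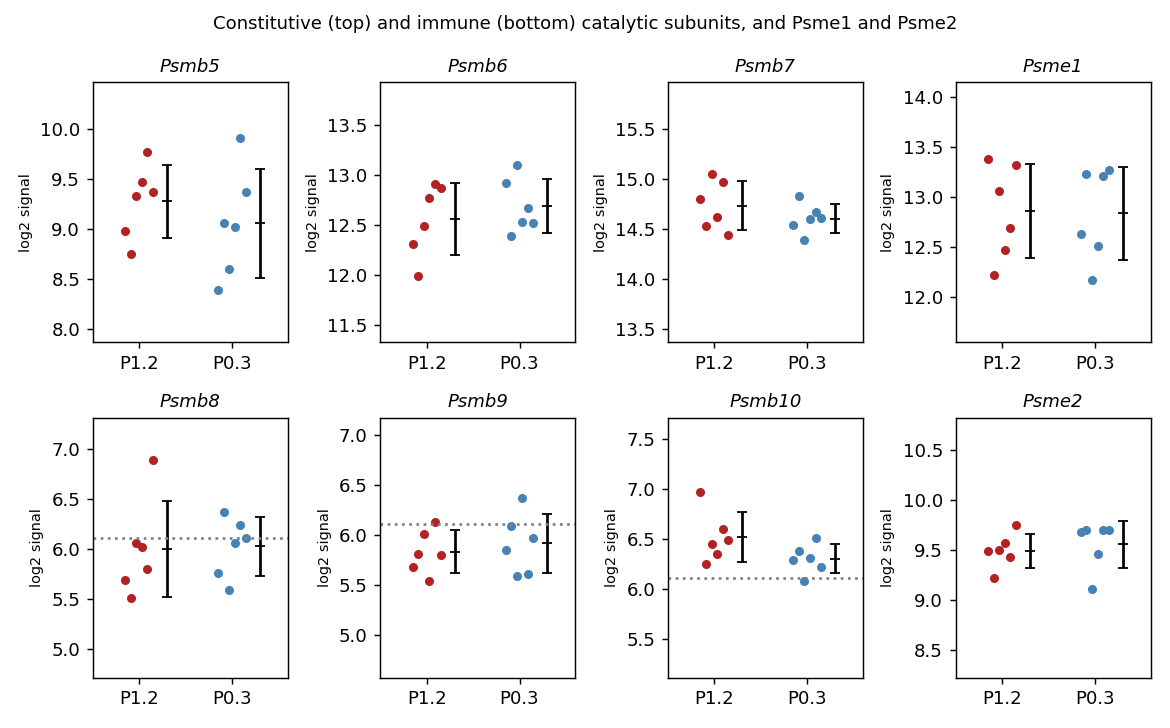
Log2 signal of the constitutive catalytic genes (top), the immune genes that take their places (bottom) and Psme1 and Psme2 (right), 1 point per mouse, with the mean and SD beside each group of 6; the dotted line is the dim level of 6.11. The P1.2 and P0.3 points overlap in all 8 panels, and Psmb8 and Psmb9 lie around the dim level.

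To see whether the diet moved immune against constitutive subunits, the within-array difference of each pair was compared, as far as the dim immune probe sets allow. Psmb8 minus Psmb5 averaged -3.28 ± 0.48 in P1.2 and -3.04 ± 0.39 in P0.3 (SD, n = 6 each; difference -0.25, 95% interval -0.81 to 0.31, exact permutation p = 0.338). Psmb9 minus Psmb6 averaged -6.73 ± 0.39 in P1.2 and -6.78 ± 0.52 in P0.3 (difference 0.05, interval -0.54 to 0.64, exact permutation p = 0.857). Psmb10 minus Psmb7 averaged -8.22 ± 0.29 in P1.2 and -8.31 ± 0.10 in P0.3 (difference 0.09, interval -0.19 to 0.37, exact permutation p = 0.478). No pair passed, and the p-values adjusted over the 3 pairs were 0.718, 0.857 and 0.718. The tests were two-sided over 924 splits of the arrays, whose smallest p is 0.0022. The size of such a difference depends on the probe sets, so only its change between diets can be read. Psmb8 and Psmb9 averaged below the dim level of 6.11 and Psmb10 (6.41) just above it, so a change in these immune genes may be hidden by background and the comparison cannot show that the pairs kept their balance.

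Leukocyte markers are given beside the immune genes because blood cells express these genes strongly. None of the 15 met the criteria, 8 were below the dim level, and the mean of the list ranged from 5.62 to 6.52 in P1.2 and from 5.75 to 6.17 in P0.3. The list had a median log2 fold change of 0.01, with members in both directions. Ptprc, Cd3g and Cd14 had its smallest limma p. The pan-leukocyte gene Ptprc averaged 7.38 ± 0.19 in P1.2 and 7.10 ± 0.15 in P0.3 (SD, n = 6 each; unadjusted limma p = 0.0491, two-sided exact permutation p = 0.0216, limma adjusted p = 1). Cd3g differed by 0.30 and Cd14 by -0.22, both dim. The part of leukocytes in the immune subunits' signals was not tested.

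The antigen presentation genes that work downstream of the immune proteasome gave no call either (0 of 11 on the array, median log2 fold change 0.01). Tap2, which lay below the dim level, averaged 6.01 ± 0.12 in P1.2 and 5.75 ± 0.17 in P0.3 (unadjusted limma p = 0.0528, two-sided exact permutation p = 0.0173). The interferon factor gene Irf1 averaged 7.30 ± 0.41 in P1.2 and 7.74 ± 0.50 in P0.3 (unadjusted limma p = 0.0777, exact permutation p = 0.13). These genes had the smallest limma p of the list, both with a limma adjusted p of 1.

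Genes that act before or beside the proteasome gave no call. None of 21 assembly factors and associated proteins was called (median 0.03), with Psmg1, an assembly chaperone of the core, at 11.24 ± 0.35 in P1.2 and 11.52 ± 0.23 in P0.3 and the shuttle factor Rad23b at 12.77 ± 0.33 in P1.2 and 13.01 ± 0.23 in P0.3 (SD, n = 6 each). None of 12 genes of proteasome transcription was called (median -0.04). Nfe2l1, which encodes the main activator of proteasome genes when the proteasome is impaired, averaged 16.95 in P1.2 and 17.08 in P0.3, and the 2 with the smallest p, Nfe2l3 and Mafg, differed by 0.36 (SE 0.20) and 0.30 (SE 0.20). None of 9 genes for ubiquitin and its activation was called (median 0.10), with Uba6 at 0.29 (SE 0.26) and Ube2b at 0.17 (SE 0.17).

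The ligases and FOXO factors known for muscle atrophy, 12 genes, had a median of 0.12 and no call. Trim63 and Fbxo32, the ligases MuRF1 and atrogin-1, differed by 0.13 and 0.21. Traf6 and Foxo1 had the smallest limma p of the list. Traf6 averaged 7.52 ± 0.17 in P1.2 and 7.24 ± 0.11 in P0.3, a difference of 0.28 that was short of 1.3-fold (unadjusted limma p = 0.0436, two-sided exact permutation p = 0.0108, limma adjusted p = 1). Foxo1 averaged 7.39 ± 0.86 in P1.2 and 6.82 ± 0.20 in P0.3, a 1.48-fold difference (unadjusted limma p = 0.0788, exact permutation p = 0.0823). Its highest P1.2 mouse stood at 9.04, with a P1.2 median of 7.15 and a highest P0.3 value of 7.01.

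Proteasome signals nevertheless differed from array to array. With 1 array per mouse, differences between mice and between arrays cannot be told apart. The SD over the 12 arrays had a median of 0.31 over the 44 genes, from 0.14 (Psmc4) to 0.68 (Psmd7), the same as the 0.31 of all transcripts. Among bright probe sets (mean of 9 or more) it was 0.31 in 35 members and 0.32 in 5068 transcripts. The members did not move as a block. Over all 946 pairs the median Pearson r across the 12 arrays was 0.07 (-0.92 to 0.94), and it was 0.06 within the core, 0.13 within the regulatory particle, 0.15 between core and regulatory genes, 0.20 among the immune genes and 0.00 between immune and core genes. Genes read on the same array share its RNA quality and hybridization, which can differ between arrays. The part of these in the correlations was not tested, and the correlations are given with no test.

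Some members ran opposite to others, a pattern picked out after the values had been seen. Psmb1 and Psmd13 were the most alike (r = 0.94), followed by Psmc3 with Psmd13 (0.90) and Psmb4 with Psmc3 (0.90). Psmc3 with Psmd12 were the most opposed (-0.92), followed by Psmc3 with Psma2 (-0.91) and with Psmd5 (-0.90). Psmc3 was lowest in the mice P1.2 numbers 2 (14.02) and 4 (13.88) and P0.3 numbers 1 (13.97) and 5 (14.07), the 4 mice with the highest Psmd5 (8.86, 8.78, 8.81 and 8.69). Both diets are in each end of this range. P1.2 number 10 was high in most members, with 35 of 44 above their means, and P1.2 number 4 was low, with 30 of 44 below. Such counts over all transcripts are not given here, so these need not be particular to proteasome genes.

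**Figure D3:**
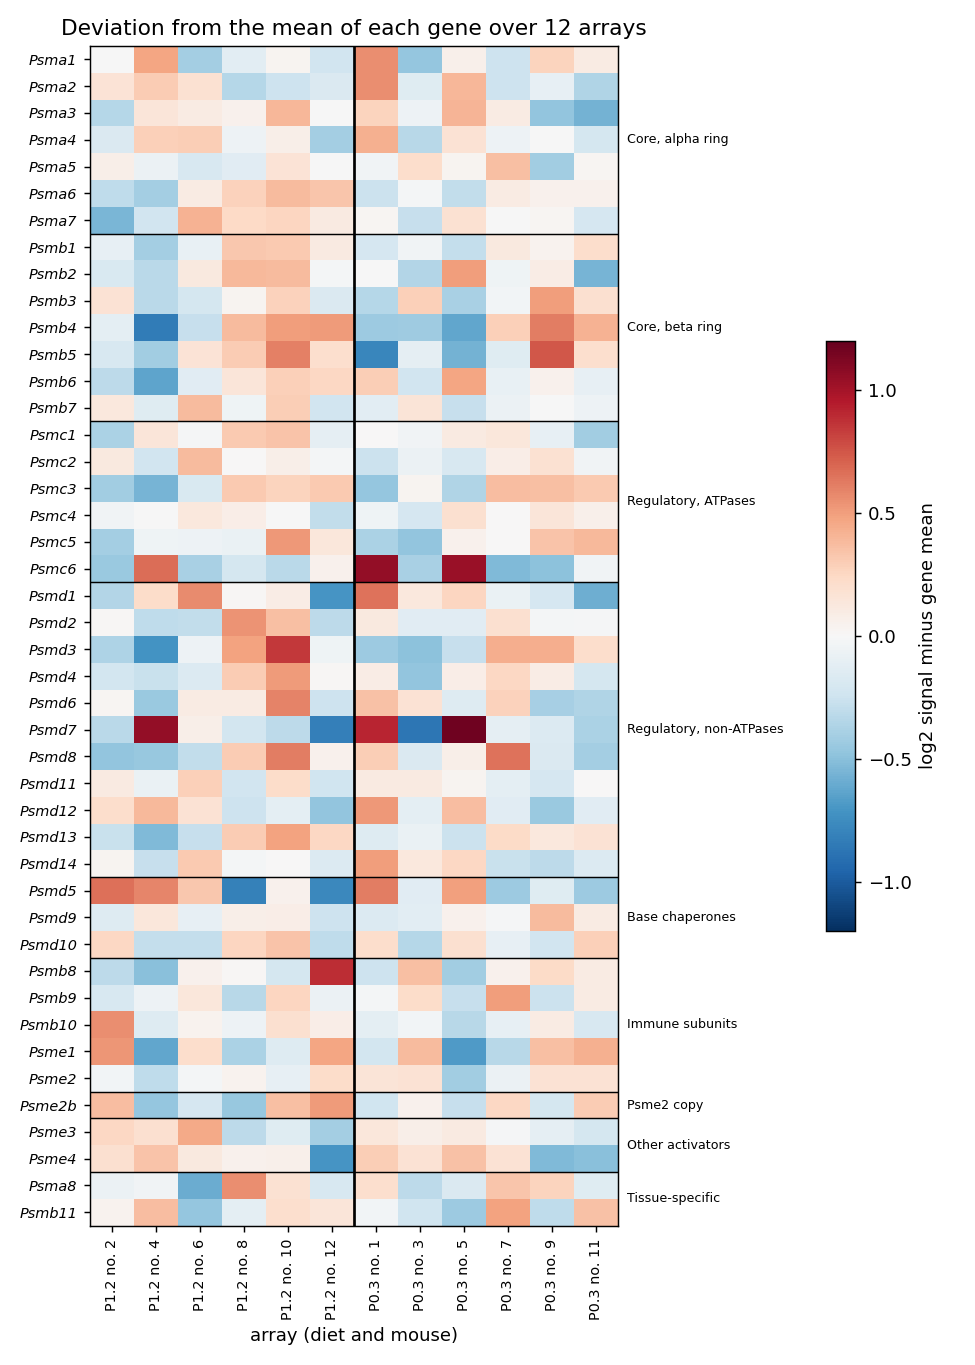
Log2 signal of each gene minus its mean over the 12 arrays, with P1.2 arrays to the left of the line and P0.3 arrays to the right, grouped by role. Psmc6 and Psmd7 are high in P1.2 number 4 and P0.3 numbers 1 and 5, Psmb4 and Psmd3 are low in the first of these, and no block of rows is of 1 colour on either side of the line.

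Of 12 gene pairs compared across mice, none passed at an adjusted p under 0.05. Psme1 and Psme2, which form 1 ring together, had r = 0.75 (permutation p = 0.00427, adjusted 0.0512; rho 0.69, permutation p = 0.0164, adjusted 0.177). Without the 2 arrays farthest from the median of Psme1, r was 0.46. Leaving those out also narrows the range of Psme1, so how far the relation leaned on them cannot be told. Psmb8 and Tap1 had r = 0.69 (permutation p = 0.0122, adjusted 0.0734; rho 0.55, permutation p = 0.072, adjusted 0.216) and 0.31 without 2 arrays. Psmb9 and Tap1, which share the stretch printed above, had r = -0.29 (permutation p = 0.355, adjusted 0.71). The immune catalytic genes were not clearly related to each other: Psmb8 and Psmb9 had r = 0.15, Psmb8 and Psmb10 0.09, and Psmb9 and Psmb10 -0.05, all of them dim or nearly so. Psmb10 and Psmb7 had r = 0.53 (permutation p = 0.078, adjusted 0.312). Taken as deviations from the diet means, 2 pairs passed with permutation across all mice (Psme1 with Psme2, and Psmb8 with Tap1) and 1 with permutation within diets (Psme1 with Psme2).

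The muscle pieces differed in slow fibre genes, so each member was also fitted against them. The mean log2 signal of 10 slow fibre genes was 12.32 and 13.53 in P1.2 numbers 2 and 12 and 13.41 and 13.34 in P0.3 numbers 9 and 11, and from 8.79 to 10.96 in the other 8 mice, with 4 of them on each diet. Its mean was 11.04 in P1.2 and 11.03 in P0.3 (exact permutation p = 0.989). In limma with diet in the model, 1 member had a positive and 1 a negative slope at an adjusted p under 0.05 (2.16% and 1.26% of all transcripts, 3.42% in either direction), and 9 of the 44 had an unadjusted p under 0.05 (15.7% of all transcripts). This fit was chosen after the values had been seen.

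Psme1 had the positive slope, 0.21 log2 units per log2 unit of slow fibre signal (SE 0.05, limma adjusted p = 0.0286). Its 4 slow-rich mice lay between 13.21 and 13.38, and only P0.3 number 3 of the others reached this range (13.23). Psme4 had the negative slope, -0.18 (SE 0.04, limma adjusted p = 0.0286). It was 15.06, 15.24 and 15.27 in P1.2 number 12 and P0.3 numbers 9 and 11, below all other mice, while the fourth slow-rich mouse, P1.2 number 2, had 15.96. Psma3 (-0.15, limma adjusted p = 0.0702) and Psmd1 (-0.18, limma adjusted p = 0.0849) came next and did not pass.

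The mice formed 2 separate groups in slow fibre signal, so no correlation is given over all 12. Over the 8 slow-poor mice, r was 0.58 for Psme1 (exact permutation p = 0.134) and -0.41 for Psme4 (exact permutation p = 0.304), with adjusted p = 0.949 over the 44 genes. The relation was therefore not detectable among them. Leaving out 1 mouse ended the call of Psme1 for 6 mice (P1.2 numbers 2, 4 and 12 and P0.3 numbers 5, 9 and 11; limma adjusted p 0.0509 to 0.092) and that of Psme4 for 5 (the same without P1.2 number 2; 0.0593 to 0.182), with slopes from 0.19 to 0.23 and from -0.21 to -0.15.

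**Figure D4:**
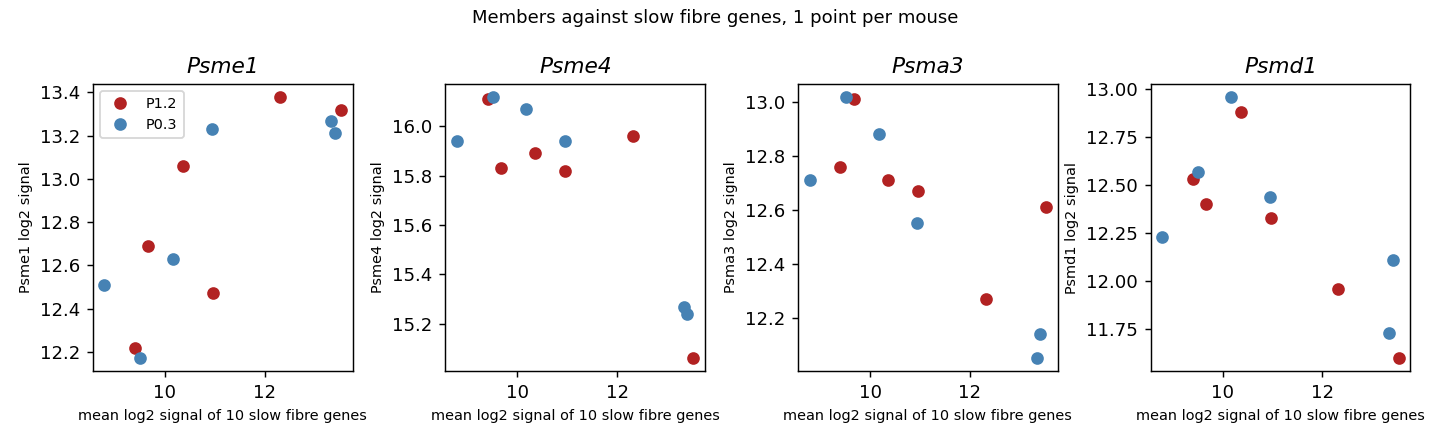
Log2 signal of Psme1, Psme4, Psma3 and Psmd1 against the mean log2 signal of 10 slow fibre genes, 1 point per mouse, coloured by diet. Psme1 lies between 13.21 and 13.38 in the 4 mice on the right, Psme4 is at most 15.27 in 3 of these 4, and both diets lie in each cloud.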

How the data were processed

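Total RNA of M. gastrocnemius (6 mice per diet, 1 array each, no pooling) was hybridized to Clariom S mouse arrays. Probe signals were summarized by the authors in Expression Console 1.4 by GCCN-SST-RMA, so the deposited values are log2 signals already normalized. RMA can compress differences at low signal. Arrays have no read depth, and precision depends on how many were run (6 per diet). The other deposited table repeats these values, rounded at 2 decimals. The authors' means, log ratios, fold changes and p-values were not used. The genome build of the array annotation is not given in the sources used here.

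P1.2 minus P0.3 was fitted with limma 3.58.1 in R 4.3.3 over all 22206 transcripts, and genes were called at the study's thresholds (fold change over 1.3 either way, unadjusted p under 0.05), with limma in place of the study's t-test. Differences within arrays were tested by exact permutation over the 924 splits, and correlations with 100000 permutations, all two-sided. Exact permutation p-values of single genes and list means are given beside limma, unadjusted, and decided no call. Lowest, median and highest values are given for the 2 genes of each class with the smallest p, the 6 catalytic genes, Psme1, Psme2, Psma8 and Psmb11. Of other lists, apart from the cell type and fibre markers, genes at the criteria and the 2 with the smallest p are named. Nfe2l1, Trim63, Fbxo32 and all values by mouse were named beyond this rule, after their values had been seen. Of the markers only Lep, at the criteria, and the leukocyte genes Ptprc, Cd3g and Cd14 are named. Psmd3, Psmd7, Psmb1, Psmb7, Psmc3, Psmb2 and Psma8 had no promoter in the RefSeq table. H2-D1 and Paaf1 were not matched on the array.

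Members and lists were chosen with earlier results of these data known. Mice were housed in pairs, and the labels do not give the cage, so mice are treated as independent. Alternatives were the methods' t-test, another variance prior, slow fibre signal as covariate, other normalizations, the rounded table, a signal filter and leaving out each array. Only the main limma fit of the diet difference was checked on simulated data. Other software was matplotlib 3.10.9, pandas 2.3.3, scipy 1.17.1, numpy 2.4.6 and Python 3.11.15.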

Additional observations from a re-analysis of the deposited data

Results flagged for a closer look

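Of 88 groups of 6 arrays (44 genes on 2 diets), 1 held a mouse far from the others. In P1.2, Psme4 was 15.06 in number 12, the lowest, and 15.82 in the next mouse. The gap was 0.731 of the range of the group, above Dixon's critical value of 0.625 for 6 samples. By chance about 1 in 20 groups would be picked out. Number 12 also had the highest slow fibre signal of all mice (13.53) and the highest Psmb8 (6.89). The slope of Psme4 on slow fibre signal was -0.18 over all mice (limma adjusted p = 0.0286) and -0.15 without number 12 (limma adjusted p = 0.182).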

How the results depend on the processing

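The counts of called members, 0 higher and 0 lower, stayed 0 under every alternative run, including leaving out each array in turn. No paired analysis was possible because the groups share no replicate number (odd in P0.3, even in P1.2). Small fold changes changed sign: Psmb8 was 0.00 after centring arrays on their medians and 0.00 after quantile normalization, Psmd10 0.02 after centring, and Psme3 and Psme4 each -0.02 after quantile normalization. The cause was not tested.

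Leaving out 1 array moved the median fold change over 0.00 to 0.12 in core, -0.07 to 0.05 in regulatory and -0.11 to 0.07 in immune genes. It moved Psmb8 minus Psmb5 over -0.41 to -0.11 (lowest exact permutation p = 0.0866), Psmb10 minus Psmb7 over 0.01 to 0.17, and the fold changes of Psmc6 over -0.37 to -0.03, Psmb5 0.09 to 0.39, Psmb10 0.13 to 0.27, Psmb6 -0.20 to -0.02, Psmb7 0.06 to 0.19, Psma3 0.02 to 0.21, Psma6 0.06 to 0.22, Psmc2 0.04 to 0.16, Psmd9 -0.12 to -0.01 and Psme2 -0.16 to -0.01, with no change of sign. The sign changed in the others: Psmb9 minus Psmb6 ran over -0.10 to 0.17, and the fold changes of Psma8 over -0.17 to 0.06, Psmb8 -0.21 to 0.07, Psmb9 -0.15 to 0.01, Psmb11 -0.02 to 0.16, Psmd7 -0.41 to 0.03, Psmd8 -0.22 to 0.04, Psmd10 -0.08 to 0.05, Psme1 -0.11 to 0.15, Psme2b -0.06 to 0.14, Psme3 -0.08 to 0.09 and Psme4 -0.09 to 0.16. Of the members given with their ranges, none reached an unadjusted limma p under 0.05 without 1 array (lowest 0.0815, Psmb5).

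Another 2 tests of the gene pairs were added after the data were seen, on deviations from the diet means. With permutation across all mice 2 of the 12 pairs passed, Psme1 with Psme2 (r = 0.77, adjusted permutation p = 0.0228) and Psmb8 with Tap1 (r = 0.71, adjusted permutation p = 0.0418). With permutation within diets, which was added after that count was known, 1 passed, Psme1 with Psme2 (adjusted permutation p = 0.0349). Leaving out 1 array gave 0 to 1 pairs. The count of members with a slow fibre slope ranged from 0 to 1 (positive) and from 0 to 2 (negative) without 1 array, the second negative one being Psmd1 without P0.3 number 7 (-0.23, limma adjusted p = 0.0186).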
